A study of Mus musculus with 5 samples.

Results

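The class I MHC and immunoproteasome group comprised 10 genes: H2-K1, H2-D1, B2m, Tap1, Tap2, Tapbp, Psmb8, Psmb9, Psmb10 and Erap1. They were taken by gene name from the count table of mouse embryos with and without Oct4, in which 49671 genes are listed. Of these, 12067 genes, all 10 members among them, had enough reads to be compared between genotypes. Members on chromosome 17 numbered 7, and B2m, Psmb10 and Erap1 lie on chromosomes 2, 8 and 13. The genes were chosen by their measured difference in read counts between Oct4-deleted and control embryos of this series, so these differences between genotypes are given as a description and carry no p-value.

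Class I MHC molecules display short peptides from the proteins made inside a cell on its surface. The proteasome cuts the proteins, and in cells exposed to interferon the catalytic subunits Psmb5, Psmb6 and Psmb7 are replaced by the inducible subunits Psmb8, Psmb9 and Psmb10 to form the immunoproteasome. The Tap1-Tap2 transporter carries peptides into the endoplasmic reticulum, Erap1 trims them there, and tapasin, encoded by Tapbp, helps to load them onto a heavy chain such as H2-K1 or H2-D1 paired with the light chain B2m. Class I display is low in the early mouse embryo. Apart from B2m, Psmb10 and Erap1, these genes lie in the MHC region of chromosome 17, which also holds Pou5f1, the gene for Oct4.

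The embryos, 2 SO+ and 3 SO-, were of mixed strain background, and RNA of each was sequenced separately. According to the paper they were taken once Oct4 had been deleted, ahead of any clearly visible change in form. SO+ embryos had no Sox2Cre transgene and carried 1 floxed and 1 intact Oct4 allele (Oct4 fl/+). SO- embryos carried Sox2Cre with a floxed and a null allele (Sox2Cre+/-; Oct4 fl/-). The floxed allele, which came from the mother, was thus common to both groups, and the null or intact allele and the Cre transgene came from the father. Cre is driven by the Sox2 promoter and acts mainly in the epiblast, whereas each library was made from the epiblast plus visceral endoderm (VE) of a single embryo after removal of the extra-embryonic ectoderm (ExE). A lower or higher level can therefore reflect the number of cells of one type or the RNA per cell, which cannot be told apart here.

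Counts summed to between 1117566 and 27538119 per embryo, and SO+ totals exceeded SO- totals 8.67-fold on average. Both SO+ libraries also carried a different second index from the SO- libraries, so that genotype, depth and index cannot be told apart. Levels are given as CPM, the read count of a gene scaled to the library total, and as FPKM where genes are compared with each other, that is CPM per kilobase of exon. A count of 3, taken as the floor for a library, corresponded to between 0.109 and 2.68 CPM, the latter in SO- embryo 2, and PCR copies were not marked in these libraries, so floors and intervals cover counting error only. Pou5f1 stood at 920 and 435 CPM in SO+ embryos 1 and 2 and at 27.8, 12.5 and 43.7 CPM in SO- embryos 1, 2 and 3. Its log2 fold change, SO- over SO+ as for all fold changes here, was -4.43 (standard error (SE) 0.33, adjusted p = 3.94e-05, edgeR's quasi-likelihood test with Benjamini-Hochberg adjustment), and the labels of all 5 embryos fitted the level of the deleted gene. Pou5f1 missed the threshold in limma-voom and with a robust estimate of spread, with every SO- embryo still below both SO+ embryos in CPM. No marker on the lists of 8 epiblast and 10 VE genes was at 0 in all embryos.

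Promoter windows of the genes are shown first, since the members differ in the regulatory motifs at their start as well as in their levels. Windows run from 250 bases before to 50 bases after a RefSeq start (build GRCm38.p6) and were found for 9 of the 10 members. Tap2 was not matched. A total of 6 motifs were searched on both strands. These were the core of the interferon-stimulated response element (a pair of GAAA with any 2 bases between them), the gamma-activated site (TTCNNNGAA), the CCAAT box, the core of the X2 box found in MHC promoters (TGACG), a kappa B site (GGGA, any base, T, any base and CCC) and the octamer (ATGCAAAT), which POU factors such as Oct4 bind. Of 32851 promoter windows of the same length, 3.44% held the first, 8.3% the second, 37.4% the third, 20.8% the fourth, 1.1% the fifth and 1.74% the octamer. The 5 windows below are printed 5′ to 3′ on the gene's strand, with every match in capitals. Psmb8, Tapbp and Psmb10 are the members with the clearest differences between embryos, and H2-K1 and B2m are the heavy and light chains whose levels are set against them.
Psmb8, chr17:34197945-34198244, plus strand: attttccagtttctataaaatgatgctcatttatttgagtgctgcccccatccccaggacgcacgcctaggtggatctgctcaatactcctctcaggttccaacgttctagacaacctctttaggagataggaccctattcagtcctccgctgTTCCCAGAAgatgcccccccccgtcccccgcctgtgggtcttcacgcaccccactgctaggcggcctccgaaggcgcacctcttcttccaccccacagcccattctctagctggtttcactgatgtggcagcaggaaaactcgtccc
Tapbp, chr17:33919228-33919527, plus strand: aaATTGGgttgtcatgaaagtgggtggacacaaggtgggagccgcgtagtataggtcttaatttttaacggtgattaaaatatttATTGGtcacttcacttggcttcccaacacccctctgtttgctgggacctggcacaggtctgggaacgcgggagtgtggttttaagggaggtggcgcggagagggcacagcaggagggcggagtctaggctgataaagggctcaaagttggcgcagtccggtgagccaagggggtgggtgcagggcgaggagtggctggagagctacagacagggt
Psmb10, chr8:105938343-105938642, minus strand: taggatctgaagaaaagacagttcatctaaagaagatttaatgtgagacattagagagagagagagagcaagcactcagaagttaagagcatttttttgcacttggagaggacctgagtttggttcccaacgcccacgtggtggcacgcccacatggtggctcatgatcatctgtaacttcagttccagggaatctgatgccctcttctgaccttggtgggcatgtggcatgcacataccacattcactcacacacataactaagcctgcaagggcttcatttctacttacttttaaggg
H2-K1, chr17:34000298-34000597, minus strand: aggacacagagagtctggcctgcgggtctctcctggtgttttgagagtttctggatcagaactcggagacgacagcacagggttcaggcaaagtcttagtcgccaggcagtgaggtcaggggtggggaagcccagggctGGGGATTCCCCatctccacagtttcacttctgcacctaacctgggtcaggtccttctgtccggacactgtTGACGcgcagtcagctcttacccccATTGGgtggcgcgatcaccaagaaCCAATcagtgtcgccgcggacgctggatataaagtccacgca
B2m, chr2:122147437-122147736, plus strand: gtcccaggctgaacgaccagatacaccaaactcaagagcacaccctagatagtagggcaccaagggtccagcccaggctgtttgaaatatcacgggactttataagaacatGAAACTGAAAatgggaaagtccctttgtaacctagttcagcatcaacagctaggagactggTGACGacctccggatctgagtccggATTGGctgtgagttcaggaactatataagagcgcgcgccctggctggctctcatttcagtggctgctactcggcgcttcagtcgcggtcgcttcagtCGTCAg

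Among these sequences the Psmb8 window held a single match, TTCCCAGAA at position -97 from the start. Tapbp had the CCAAT box in reverse (ATTGG) at positions -248 and -165, and Psmb10 had none of the 6 motifs in its window. In the H2-K1 window, kappa B matches on the 2 strands overlapped each other at positions -111 and -110, and were followed by TGACG at -41, ATTGG at -16 and CCAAT at 8. H2-D1 had the same order of matches, with its kappa B pair at -171 and -170. The B2m window held GAAACTGAAA at -139, TGACG at -78, ATTGG at -53 and CGTCA at 44. The interferon element was also found at the Erap1 start, in reverse as TTTCACTTTC at -4. Tap1 and Psmb9 are transcribed in opposite directions from starts so close that their windows share 275 bases, which held 1 CCAAT box and 1 TGACG. The octamer was in none of the 9 members' windows. These matches are letters in a window of DNA, and binding was not measured.

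Among the inducible catalytic subunits, Psmb8 had the largest log2 fold change of all 10 members. Psmb8, which replaces Psmb5 in the immunoproteasome, was present at 3.23 and 11.2 CPM in SO+ embryos 1 and 2 and at 74.5, 106 and 76.8 CPM in SO- embryos 1, 2 and 3. Every SO- embryo lay above both SO+ embryos, the lowest of them 6.63-fold above the higher SO+ embryo, and a 3.48-fold difference separated the SO+ embryos. The counts behind these values were 89 and 304 in SO+ and 308, 119 and 322 in SO- embryos, so that a library with 1117566 counts in all gave more Psmb8 reads than a library of 27538119. The log2 fold change was 3.54 (SE 0.40), or 11.7-fold, and Psmb8 stood at percentile 26.0 of the tested genes by mean FPKM in SO+ and at percentile 81.2 in SO- embryos.

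Psmb10, the inducible counterpart of Psmb7, was the most abundant member per exon length in both genotypes. It was at 64.9 and 71.0 CPM in SO+ embryos and at 135, 132 and 142 CPM in SO- embryos. The SO+ embryos differed 1.09-fold and the SO- embryos 1.08-fold among themselves, and the groups did not overlap. Its log2 fold change was 1.02 (SE 0.13). Psmb9, the counterpart of Psmb6, was near the limit of counting, at 0.472 and 0.776 CPM in SO+ and 2.42, 1.79 and 2.39 CPM in SO- embryos. These levels rest on 13 and 21 counts in SO+ and on 10, 2 and 10 counts in SO- embryos, and the value for SO- embryo 2, below the floor of 3 counts, has an exact 95% Poisson interval from 0.217 to 6.46 CPM. The log2 fold change of Psmb9 was 1.86 (SE 0.76), and the groups did not overlap in CPM.

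Of the genes that transport, trim and load peptides, Tapbp, Tap2 and Erap1 did not overlap between genotypes and Tap1 did. Tapbp was at 25.6 and 39.7 CPM in SO+ embryos and at 113, 112 and 98.5 CPM in SO- embryos, with a log2 fold change of 1.72 (SE 0.19). The groups were separated by a factor of 2.48 between the highest SO+ and the lowest SO- embryo, and SO- embryos lay within 1.15-fold of each other. Tap2, a subunit of the transporter, was at 2.83 and 4.84 CPM in SO+ and at 12.8, 12.5 and 14.6 CPM in SO- embryos (log2 fold change 1.81, SE 0.40), again without overlap. Its partner Tap1 was lower and overlapped between genotypes, at 1.49 and 0.776 CPM in SO+ and 1.45, 2.68 and 2.86 CPM in SO- embryos. Tap1 had 41 and 21 counts in SO+ and 6, 3 and 12 counts in SO- embryos, and its log2 fold change of 1.00 had an SE of 0.73. Erap1, the aminopeptidase, was at 17.3 and 24.9 CPM in SO+ and at 45.2, 34.9 and 54.4 CPM in SO- embryos. Each SO- embryo was above each SO+ embryo, and the log2 fold change was 1.13 (SE 0.23).

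The log2 fold changes of the presenting molecules themselves were the smallest in size among the members. H2-K1 was at 37.9 and 34.0 CPM in SO+ and at 33.6, 41.2 and 46.0 CPM in SO- embryos, with a log2 fold change of 0.17 (SE 0.19). H2-D1 was at 16.2 and 12.2 CPM in SO+ and at 13.8, 9.84 and 26.7 CPM in SO- embryos. Both heavy chains overlapped between genotypes, and the log2 fold change of H2-D1, 0.33 (SE 0.35), turned to -0.21 without SO- embryo 3. B2m was the only member with a log2 fold change below 0, at -0.57 (SE 0.35). It was at 10.5 and 12.6 CPM in SO+ and at 9.19, 4.47 and 8.11 CPM in SO- embryos, so that all SO- embryos lay below both SO+ embryos. The smallest value, 4.47 CPM in SO- embryo 2, rests on 5 counts and has an exact 95% Poisson interval from 1.45 to 10.4 CPM, which nearly reaches the level in SO+ embryo 1.

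**Figure D1:**
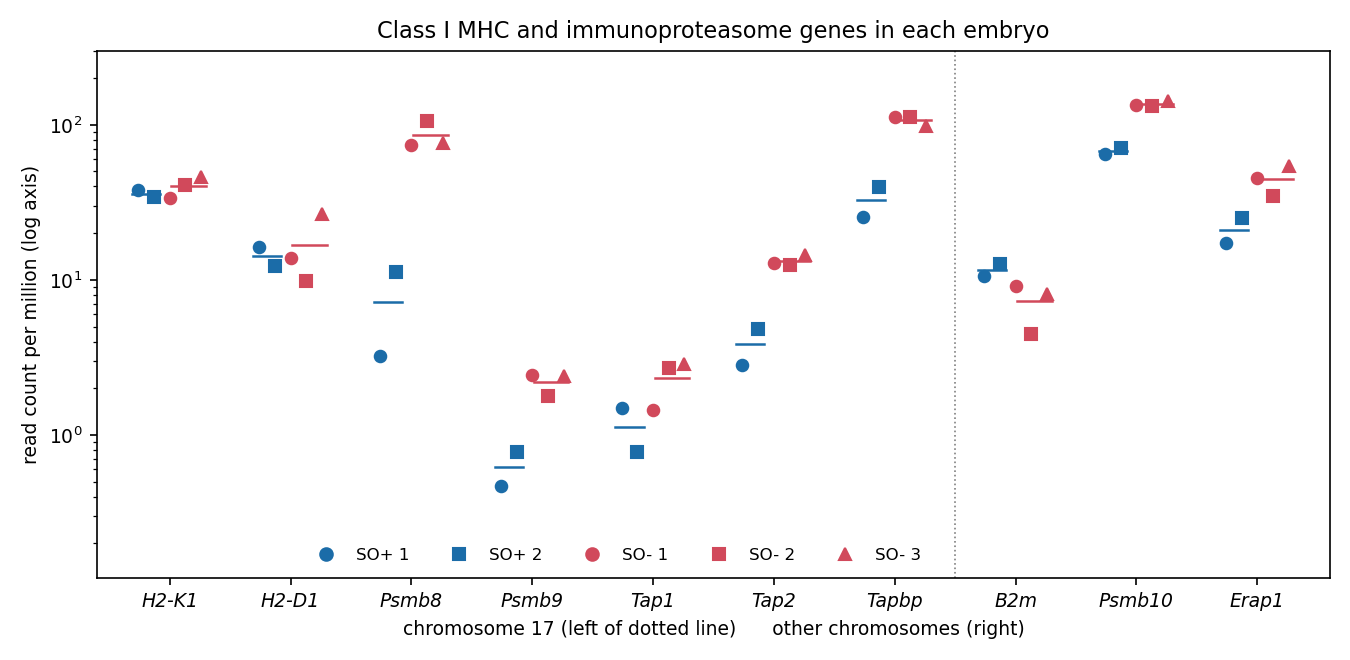
Level of each of the 10 genes in each embryo, as CPM on a log axis. Points are single embryos (blue SO+, red SO-, shape by embryo number), bars are group means, and the dotted line divides chromosome 17 from other chromosomes. Psmb8, Psmb9, Tap2, Tapbp, Psmb10 and Erap1 have all SO- embryos above all SO+ embryos, and B2m has them below.

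Read against all genes, edgeR's quasi-likelihood test with Benjamini-Hochberg adjustment gave 283 of 12067 genes with an adjusted p under 0.05, which is 2.35% of those tested, and 171 of these (1.42%) were higher and 112 (0.928%) lower in SO- embryos. Psmb8, Tapbp, Tap2, Psmb10 and Erap1, 5 of the 10 members, were among the 171, and the same 5 passed in DESeq2, where 2.06% of genes were higher. Since the members were picked with this contrast known, no weight is placed on that number. In limma-voom Tapbp, Psmb8 and Psmb10 passed, and Tap2 and Erap1 did not. Tap2 and Erap1 also failed to pass when any SO- embryo was left out. Psmb8 did not pass with a robust estimate of spread or without SO- embryo 2. All SO- embryos were above all SO+ embryos in CPM for 6 members and below for 1, against 13.9% and 15.6% of all tested genes. The log2 fold change was above 0 in 9 of 10 members and in 49.7% of all genes, and its median was 1.07 over the members and -0.0019 over all genes.

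When each embryo was left out in turn, the log2 fold change ranged from 1.43 to 2.08 for Tapbp, from 0.95 to 1.08 for Psmb10, from 2.89 to 4.70 for Psmb8, from 1.46 to 2.24 for Tap2 and from 0.89 to 1.42 for Erap1. Embryos of a genotype also differed, with Psmb8 at 3.23 and 11.2 CPM in SO+ embryos 1 and 2. SO+ embryo 2 was above SO+ embryo 1 in 7 of the 10 members, against 49.4% of all tested genes. With so few genes no weight is placed on that count. Each embryo is a separate animal, and the spread between so few animals is known only roughly.

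The order of the members by level differed between genotypes. By mean FPKM in SO+ embryos it was Psmb10 (39.9), B2m (13.4), H2-K1 (12.2), Tapbp (9.0), H2-D1 (5.51), Erap1 (2.90), Psmb8 (2.14), Tap2 (1.02), Tap1 (0.207) and Psmb9 (0.171). In SO- embryos it was Psmb10 (80.1), Tapbp (29.7), Psmb8 (25.4), H2-K1 (13.7), B2m (8.44), H2-D1 (6.51), Erap1 (6.16), Tap2 (3.52), Psmb9 (0.601) and Tap1 (0.426). In SO+ embryos the ranges of B2m and H2-K1, of Erap1 and Psmb8, of Psmb8 and Tap2, and of Tap1 and Psmb9 overlapped, so these neighbours cannot be ordered. In SO- embryos the same was true of Tapbp and Psmb8, of B2m and H2-D1, of H2-D1 and Erap1, and of Psmb9 and Tap1. Psmb8 and Tapbp were thus below both H2-K1 and B2m in every SO+ embryo and above both in every SO- embryo. The FPKM of B2m divided by the summed FPKM of H2-K1 and H2-D1 was 0.639 and 0.897 in SO+ and 0.637, 0.292 and 0.362 in SO- embryos.

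The inducible subunits were next set against the subunits they replace, whose genes were not members. Psmb5, Psmb6 and Psmb7 had log2 fold changes of -0.08 (SE 0.12), -0.02 (SE 0.10) and 0.04 (SE 0.11), and none passed the test in edgeR, DESeq2 or limma-voom or had an unadjusted p under 0.05. Psmb8 FPKM was 0.444% and 1.86% of Psmb5 FPKM in SO+ and 11.6%, 18.7% and 11.7% in SO- embryos. Psmb10 FPKM was 65.6% and 71.7% of Psmb7 FPKM in SO+ and 128%, 143% and 136% in SO- embryos. That it exceeded Psmb7 in SO- embryos depends on the division by exon length (1705 bases for Psmb10 and 3421 for Psmb7). In CPM, Psmb10 was below Psmb7 in SO- embryos 1, 2 and 3 as well, at 135, 132 and 142 against 211, 185 and 210. Psmb9 was at most 0.305% of Psmb6 in any embryo. Together the inducible subunits made up 7.36% and 8.78% of the FPKM of all 6 catalytic genes in SO+ and 17.8%, 19.4% and 18.4% in SO- embryos. The means were 8.07% ± 1.00 (SD, n = 2) and 18.6% ± 0.814 (SD, n = 3), a difference of 10.5 percentage points. Most of this sum was Psmb10 in SO+ embryos, and in SO- embryos it was Psmb10 and Psmb8.

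**Figure D2:**
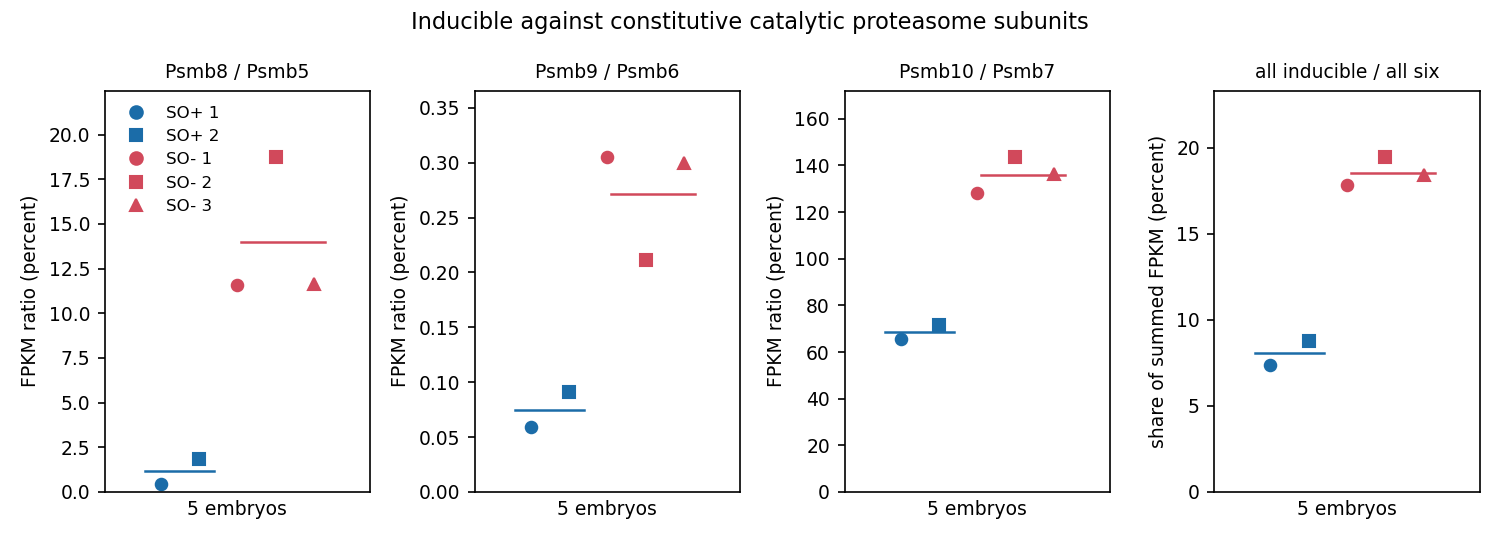
Inducible catalytic subunits of the proteasome against the constitutive ones in each embryo. The first panels give the FPKM of Psmb8, Psmb9 and Psmb10 as a percent of the FPKM of Psmb5, Psmb6 and Psmb7, the last gives the inducible share of all 6 genes, the linear axes start at 0, points are embryos and bars are group means. In each panel all SO- embryos lie above both SO+ embryos, with inducible shares of 17.8% to 19.4% against 7.36% and 8.78%.

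Other genes of antigen processing and of the proteasome, with their regulators, made up 8 lists of 135 genes and were examined in the same fit. The lists were set by gene role, but with earlier results of these data known. Their counts and p-values, and those of the interferon-stimulated genes below, are therefore given as a description. Of 106 tested, 3 passed the test (2.83%, against 2.35% of all tested genes), all of them higher in SO- embryos. In the list of 10 proteasome activators and assembly factors, Psme1 and Psme2 were higher. They encode the PA28 cap that opens the proteasome to peptides and is induced by interferon together with the immunoproteasome. Psme2 rose from 78.8 and 106 CPM to 212, 206 and 220 CPM (log2 fold change 1.21, SE 0.14, adjusted p = 6.67e-04 in edgeR), and Psme1 from 113 and 113 CPM to 191, 208 and 211 CPM (0.85, SE 0.11, adjusted p = 0.0016 in edgeR). The genotypes did not overlap for either gene. The caps Psme3 and Psme4, which are not interferon-induced, had log2 fold changes of -0.10 (SE 0.10) and -0.17 (SE 0.16) and did not pass. Psme2 passed whichever embryo was left out, and Psme1 in all omissions but that of SO- embryo 2.

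No gene passed the test, in edgeR, DESeq2 or limma-voom, in the lists of constitutive catalytic subunits (3 tested), other 20S core subunits (12 tested) or 19S regulatory subunits (22 tested), and none had an unadjusted p under 0.05. Their median log2 fold changes were -0.02, -0.01 and -0.03. In edgeR 13.7% of tested genes on chromosomes other than that of Pou5f1 had an unadjusted p under 0.05. The counts of such genes in the lists below are to be read against that share. Of 27 genes for class I folding, loading and peptide trimming outside the members, none passed in any of the 3 tools and 4 had an unadjusted p under 0.05 in edgeR, with a median log2 fold change of 0.13. The chaperones Calr, Canx and Pdia3, which work beside tapasin in the loading complex, had log2 fold changes of 0.21 (SE 0.11), -0.08 (SE 0.11) and 0.26 (SE 0.13). Tapbpl, the tapasin-like editor of peptides, was at 5.63 and 4.62 CPM in SO+ and 8.95, 7.16 and 12.9 CPM in SO- embryos, which did not pass (log2 fold change 0.97, SE 0.40). Among 22 other class I and class I-like heavy chains only 7 had enough reads to test, none passed in any of the 3 tools, 1 (Cd1d1) had an unadjusted p under 0.05, and their median log2 fold change was 0.42. Class II presentation genes were scarcely read, with 2 of 11 tested, none with an unadjusted p under 0.05 and none passing in any of the 3 tools.

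**Figure D3:**
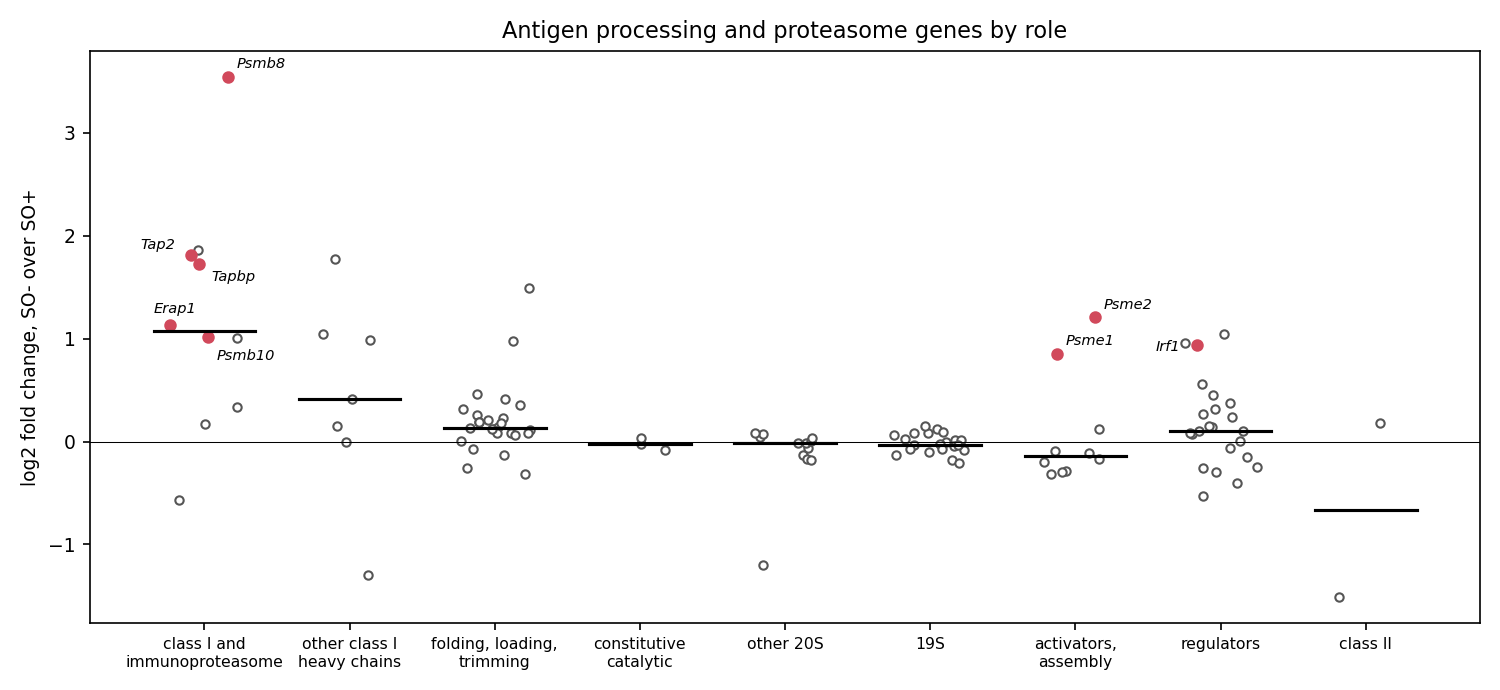
Log2 fold changes (SO- over SO+) of the tested genes of antigen processing by role. Each point is 1 gene, filled and named where its adjusted p was under 0.05 in edgeR, and bars are medians. Constitutive, 20S and 19S proteasome genes lie close to 0, with medians of -0.02, -0.01 and -0.03, whereas Psme1 (0.85), Psme2 (1.21) and 5 of the class I and immunoproteasome genes lie higher.

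Among 27 regulators of these genes, 23 were tested and 1 passed. Irf1, a transcription factor that binds the interferon-stimulated response element, rose from 69.6 and 70.0 CPM in SO+ to 137, 124 and 137 CPM in SO- embryos (log2 fold change 0.94, SE 0.13, adjusted p = 0.0016 in edgeR) and passed whichever embryo was left out. Nlrc5, the co-activator of class I genes, was at 1.38 and 0.111 CPM in SO+ embryos, at 0.242 CPM in SO- embryo 1 and at 0 in the others, too low to be tested. Of 25 interferon-stimulated genes outside the class I pathway, 16 were tested and 5 passed in edgeR, against 2.35% of all tested genes. Their median log2 fold change was 1.35 over the 16 tested. In edgeR 10 of the 16 had an unadjusted p under 0.05, against 13.7% of genes on chromosomes other than 17. With this list added to the 8 others, 8 of 122 tested genes passed (6.56%). Oasl2, Usp18, Gbp3 and Ifitm3 were higher in SO- embryos and Bst2 was lower. In limma-voom only Oasl2 of these 5 passed, and Gbp3 did not pass in DESeq2 or with a robust estimate of spread, nor Bst2 with the size factors of DESeq2 in edgeR. Oasl2, of the oligoadenylate synthetase family, rose from 4.79 and 6.25 CPM to 22.3, 17 and 29.1 CPM (log2 fold change 2.09, SE 0.32, adjusted p = 0.0035 in edgeR). Bst2, or tetherin, fell from 43.0 and 39.3 CPM to 19.3, 13.4 and 26.2 CPM (log2 fold change -0.98, SE 0.24, adjusted p = 0.0495 in edgeR). Usp18 had no reads in either SO+ embryo and between 1.19 and 5.08 CPM in SO- embryos, and it was not among the tested genes when SO- embryo 1 was left out. Leaving out 1 SO- embryo ended the call of each of Oasl2 (without embryo 1), Ifitm3 and Bst2 (without embryo 1 or 2), Usp18 (without embryo 2) and Gbp3 (without any of them), and without SO+ embryo 1 Usp18 and Bst2 also failed to pass.

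Genes on chromosome 17 were then compared with those elsewhere, since the null Oct4 allele of SO- embryos and the intact allele of SO+ embryos came with a different paternal copy of this region. Sequence or expression variants linked to the null allele cannot be told apart from the loss of Oct4 for the members on chromosome 17. They lie between 0.243 and 1.59 Mb from Pou5f1 (chr17:35506018-35510772 in GRCm38). The closest is H2-D1 (chr17:35262730-35267499). Tapbp (chr17:33915899-33929292) and H2-K1 (chr17:33996017-34000347) are the farthest, and Psmb9, Tap1, Psmb8 and Tap2 stand side by side in a stretch of 34.3 kb (chr17:34181987-34216321). Log2 fold changes were 0.33 for H2-D1, 0.17 for H2-K1 and 1.72 for Tapbp, and the 4 neighbours ranged from 1.00 for Tap1 to 3.54 for Psmb8. Whether distance from Pou5f1 matters was not tested.

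The median log2 fold change was 1.72 for the 7 members on chromosome 17, ranging from 0.17 to 3.54, and 1.02 for the 3 members elsewhere, ranging from -0.57 to 1.13. Psmb10 lies on chromosome 8 (chr8:105935735-105938444), Erap1 on chromosome 13 (chr13:74639568-74693201) and B2m on chromosome 2 (chr2:122147686-122153083). Psme1 and Psme2, which are not members, lie on chromosome 14 and Irf1 on chromosome 11. Whether variants linked to the null allele play a part in the members on chromosome 17 was not tested. Without SO+ embryo 2 the median on chromosome 17 was 2.08. With 7 and 3 members chosen for this contrast, the medians were not tested against each other.

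Other genes near Pou5f1 served as a background for the chromosome 17 members. Within 2 Mb of its start, 89 genes besides Pou5f1 and the members were tested and 1 passed, Rps18, which encodes a ribosomal protein. Rps18 was at 672 and 589 CPM in SO+ and 937, 795 and 1003 CPM in SO- embryos (log2 fold change 0.54, SE 0.12, adjusted p = 0.0268 in edgeR) and passed in 1 of the 5 omissions of an embryo. The shares were 2.38% of 126 genes within 5 Mb, 2.26% of 221 within 10 Mb, 1.66% of 362 on the rest of chromosome 17 and 2.32% of 11465 on other chromosomes. The median size of the log2 fold change, regardless of sign, was 0.19 within 2 Mb and 0.21 on other chromosomes. The 4 neighbours with the next lowest p-values, Angptl4 (-0.97, SE 0.26), Psors1c2 (-1.67, SE 0.46), Ppp1r18 (1.16, SE 0.40) and Sapcd1 (-2.29, SE 0.84), did not pass, and 3 of the 4 had negative log2 fold changes.

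**Figure D4:**
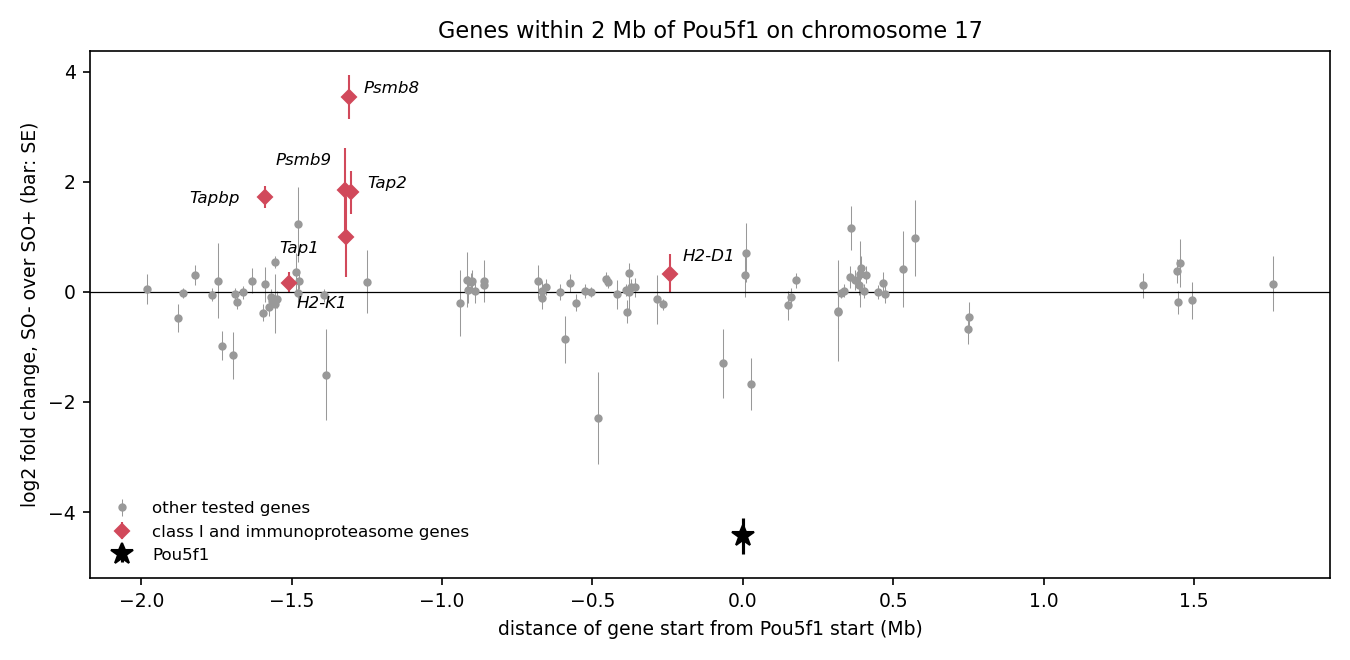
Log2 fold changes (SO- over SO+, bars are SE) of tested genes within 2 Mb of Pou5f1, plotted by the distance of their start from the start of Pou5f1. Red diamonds are the class I and immunoproteasome genes, grey points the 89 other genes and the star Pou5f1 (-4.43). Psmb8 (3.54), Psmb9, Tap2 and Tapbp stand above the grey points around them, and H2-K1 (0.17) and H2-D1 (0.33) lie among them.

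The genes most like the chromosome 17 members across the 5 embryos were sought among 9143 expressed genes, by the root mean square distance between log2 CPM profiles, each centred on its own mean. The mean profile of the members ran from -1.04 and -0.71 in SO+ embryos 1 and 2 to 0.44, 0.53 and 0.78 in SO- embryos 1, 2 and 3. H2afy2, which encodes a macroH2A histone, was closest with a distance of 0.137 on the log2 scale, at 22 and 25.8 CPM in SO+ and 54.4, 54.6 and 58.7 CPM in SO- embryos. Psme2b (0.138), Psme2 (0.149), Parp10 (0.169) and Crot (0.172) followed. Psme2b is a near-identical copy of Psme2, and reads of the 2 genes may have been divided between them, so its level is uncertain. Psme2 was named above because it passed the test on the same contrast. The profile came from members chosen with that contrast known, so its closest genes are higher in SO- embryos by construction. All 5 lie outside chromosome 17, as do most genes, since 591 of the 12067 tested lie on it.

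Cell composition was described with marker lists. Members are highly expressed in immune cells, and of 18 haematopoietic and immune markers 8 were at 0 in every embryo, among them Ptprc, the pan-leukocyte marker, and the macrophage genes Lyz2, Adgre1 and C1qa. The summed level of that list was 34.0 and 18.3 CPM in SO+ and 8.47, 8.05 and 16.2 CPM in SO- embryos. Coro1a, the only one of them tested, was lower in SO- embryos (log2 fold change -1.53, SE 0.35, adjusted p = 0.0366 in edgeR). Summed epiblast markers were at 5594 and 4900 CPM in SO+ and 2811, 2526 and 3621 CPM in SO- embryos, with Utf1, Dnmt3b and L1td1 lower among 8 tested. Summed VE markers were at 2813 and 3116 CPM in SO+ and 4326, 4266 and 2776 CPM in SO- embryos, with all 10 log2 fold changes above 0 and Sox17 passing the test. Sox17 also marks definitive endoderm, and the paper reports it in epiblast cells of SO- embryos at a later stage. Its higher level therefore cannot be assigned to VE. The lowest VE sum of the 5 embryos was that of SO- embryo 3. The sums of 8 ExE markers were 20.2 and 24.8 CPM in SO+ and 33.1, 41.2 and 32.0 CPM in SO- embryos. Maternal decidua markers summed to 4.32 and 7.25 CPM in SO+ and 11.1, 6.26 and 9.78 CPM in SO- embryos, and Prl8a2 and Prl3c1 were at 0 throughout. Endothelial and blood markers summed to 0.036 and 5.69 CPM in SO+ and 19.1, 20.6 and 11.2 CPM in SO- embryos, with 5 of 8 at 0 in every embryo, including Cdh5 and Tie1. The part of immune, epiblast, VE, ExE, decidual or endothelial cells in the members' differences was not tested.

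Some members share sequence with other genes, and the strand setting of the counting was not given in the sources used here. Exons of Gm19412 overlap 24.9% of the exon length of Tapbp, and that gene had at most 12 counts in an embryo. Zbtb22 overlaps another 4.1% of Tapbp. Gm20496 overlaps 14.7% of Psmb8 and Gm15821 overlaps 14.1% of Tap2, and both had no counts in any embryo. Cast overlaps 11.5% of Erap1 and was at 12.1 and 21.1 CPM in SO+ and 23.7, 21.5 and 17.4 CPM in SO- embryos. Tap1 and Psmb9 overlap each other over 3.9% of Tap1 and 5.8% of Psmb9. Of stretches of 150 bases in the longest transcript, 12.5% in Erap1, 8.73% in Tapbp and 1.79% in H2-D1 were found in another gene as well, and none in H2-K1, B2m, Psmb8, Psmb9, Psmb10 or Tap1. The mixed strain background leaves the H2-K1 and H2-D1 alleles of these embryos unknown, and reads of an allele that differs from the reference can be lost in alignment.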

How the data were processed

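RNA-seq libraries of 2 SO+ and 3 SO- embryos were compared, and genotypes and replicate numbers were taken from the labels. The authors removed adapters with cutadapt, aligned SmartSeq2 reads with STAR to GRCm38/mm10, counted them per Ensembl gene with HTSeq and deposited whole-number counts without normalization. How strand was treated and whether duplicates were removed is not given in the sources used here. CPM was calculated as the count over the library total. FPKM was CPM per kilobase of merged exons of GENCODE mouse release M21, which also gave coordinates and matched 99.9% of the tested genes. Depth per embryo ranged from 1117566 to 27538119 counts. Intervals of counts are exact 95% Poisson intervals.

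Counts were tested in R 4.3.3 with edgeR 4.0.16 (filterByExpr, TMM scaling and the quasi-likelihood F test on genotype alone). Benjamini-Hochberg adjustment was over 12067 genes, with a threshold of 0.05. The SE was taken as the size of the log2 fold change over the square root of its F statistic. DESeq2 1.42.0, which the study used, limma-voom (limma 3.58.1), other scaling factors, other filters, a robust spread, the replicate number as a block, other windows and lengths, and omission of each embryo were alternatives.

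The members, gene lists and tests were chosen with earlier results of these data known. Named genes are all members, Psmb5, Psmb6 and Psmb7, Pou5f1, list genes with an adjusted p under 0.05, the 5 neighbours of Pou5f1 with the lowest p, and the 5 genes of mean log2 CPM of at least 3 closest in profile to the chromosome 17 members (prior count of 2 in log2 CPM). Other list genes, such as Psme3, Psme4, Calr, Canx, Pdia3, Tapbpl, Cd1d1, Nlrc5 and markers at 0, and genes overlapping members were named for their role. Promoter windows came from RefSeq. Proteins and Oct4 binding data were not used here. Some genes of the lists are not reported here.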

Additional observations from a re-analysis of the deposited data

How the results depend on the processing

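With DESeq2, other scaling factors, both other filters and a robust spread, the counts with an adjusted p under 0.05 stayed within 1.5 times those of the fit described, which were 5 members, 8 pathway genes (of 122 tested, interferon-stimulated genes included) and 1 neighbour of Pou5f1. limma-voom gave 3 members, 4 pathway genes and 0 neighbours. Windows of 5 Mb and 10 Mb around Pou5f1 held 3 and 5. Omission of each embryo in turn gave 2 to 5 members (2 without SO- embryo 2, and 3 without SO+ embryo 1, SO- embryo 1 or SO- embryo 3), 3 to 13 pathway genes (13 without SO+ embryo 2, and 3 without SO- embryo 1 or SO- embryo 2) and 0 to 1 neighbours (0 without SO- embryo 1, 2 or 3). A lone SO+ embryo was assumed to vary like the SO- embryos. The median log2 fold change ranged from 1.46 to 2.08 for members on chromosome 17 and from 0.89 to 1.08 for those elsewhere, and the difference in inducible share from 9.79 to 11.2 percentage points. From CPM without division by length that difference was 13.6 points.

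Same-numbered embryos are different animals, and their deviations from the group means had correlations of 0.0077 and 0.115 across genes, so the numbers were not taken to pair embryos. With the replicate block 5 members, 16 pathway genes, 6 neighbours and 929 of all genes were under the threshold, against 283 of all genes without it. For all genes DESeq2 gave 393, limma-voom 91 and the omissions 35 to 573. The log2 fold change of H2-D1 was -0.26 with the block and -0.21 without SO- embryo 3. Those of the constitutive subunits, close to 0, changed sign to 0.054 for Psmb5 without SO+ embryo 1, 0.021 for Psmb6 without SO+ embryo 2 and -0.0057 for Psmb7 without SO- embryo 1. Over the 5 omissions H2-D1 ranged from -0.21 to 0.54, Psmb5 from -0.20 to 0.054, Psmb6 from -0.074 to 0.021 and Psmb7 from -0.0057 to 0.091. The causes were not tested. Tap1 and Psmb9 had at most 12 counts in an SO- embryo, and depth limits what can be said of them.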
